A study of Mus musculus with 12 samples.

Results

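The mitochondrial ribosomal protein genes were followed in RNA sequencing libraries of macrophages that had been raised from mouse bone marrow in 7 days of culture with the growth factor M-CSF. The members were every gene of the deposited table whose symbol begins with Mrpl or Mrps and a digit, excluding pseudogene symbols, that reached 1 FPKM (fragments sequenced from a transcript, per unit of its length and of library size) in at least 3 of the 12 libraries. All 77 genes with such a symbol met the level criterion, out of 24346 genes in the table and 10311 genes that passed the same filter and were tested. Of the 77, 48 carry large-subunit symbols (Mrpl) and 29 carry small-subunit symbols (Mrps).

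The study asked, per its title, how stress of the endoplasmic reticulum (ER) alters the inflammatory response of macrophages. All 4 groups were wild-type (WT) cells, with 3 libraries each: Tm_LPS (tunicamycin and then lipopolysaccharide), Tm (tunicamycin alone), LPS (lipopolysaccharide alone) and Control (no treatment). Tunicamycin stops the attachment of sugar chains to new proteins, which then misfold in the ER, and LPS is a cell wall component of bacteria. The labels give a dose of 5 ug/ml and 3 h for tunicamycin as a pretreatment, and of 1 ng/ml and 3 h for LPS. The exposure time of the cells given tunicamycin alone, the animals' age and sex, and whether replicates were separate animals or cultures are not given in the sources used here, so p-values measure the spread between these libraries, which may be technical.

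Mitochondria carry their own ribosomes, which translate the few messages of mitochondrial DNA into core subunits of the respiratory chain and the ATP synthase. The ribosomal RNAs of these particles come from mitochondrial DNA, but every ribosomal protein is encoded in the nucleus, made in the cytosol and imported. Some of the proteins have counterparts in bacterial ribosomes and others exist only in mitochondria. The small subunit reads the message, and the large subunit joins the amino acids and holds the tunnel through which the new chain leaves.

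The gene symbol does not always give the place of the protein. Mrps18a and Mrps30 bear small-subunit symbols but sit in the large subunit of the mammalian particle, and the Mrps36 protein is now known as a part of the alpha-ketoglutarate dehydrogenase complex. Counts are given by symbol, and sums also by place, with 50 members in the large subunit, 26 in the small subunit and Mrps36 left out.

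Depth in reads was unknown because the deposited values are FPKM. Summed FPKM over all genes was 601943 to 666042 in Tm_LPS, 561108 to 563002 in Tm, 666198 to 685010 in LPS and 603467 to 638743 in Control libraries. Libraries of the same group correlated across genes with Pearson's r of 0.973 to 0.986, and libraries of different groups with 0.889 to 0.951. Hspa5, the ER chaperone BiP, was higher in Tm than in Control by 3.49 on the log2 scale, and the cytokine gene Il1b was higher in LPS than in Control by 9.02. All 9 macrophage markers were expressed, with summed levels of 14649 to 24352 FPKM, while none of the 4 T and NK cell markers or 3 B cell markers reached 1 FPKM in 3 libraries. Summed neutrophil markers were 17.1 to 31.7 FPKM in Tm_LPS, 14.3 to 25.8 in Tm, 190 to 316 in LPS and 86.7 to 126 in Control, and summed stromal markers were 16.7 to 45.4 FPKM in Tm_LPS, 20.1 to 38.5 in Tm, 8.81 to 15.4 in LPS and 7.97 to 10.3 in Control. These sums moved with the treatments, and their part in the results below was not tested. In bulk libraries, fewer cells of a type and less RNA per cell cannot be told apart.

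The members were expressed at levels that differed by more than an order of magnitude between genes. On the FPKM scale, which is per length, the highest means over the 12 libraries in the large subunit were those of Mrpl42 (194 FPKM, range 111 to 304), Mrpl33 (192 FPKM, range 107 to 284) and Mrpl20 (157 FPKM, range 127 to 182). These 3 ranges overlapped one another. The lowest were Mrpl11 (6.73 FPKM, range 3.19 to 11.4), Mrpl19 (9.17 FPKM, range 5.40 to 14.2) and Mrpl41 (10.2 FPKM, range 6.35 to 14.7), whose ranges also overlapped. In the small subunit Mrps18c (161 FPKM, range 118 to 193), Mrps18b (125 FPKM, range 96.2 to 159) and Mrps21 (115 FPKM, range 55.9 to 193) were highest, and Mrps25 (6.24 FPKM, range 5.19 to 7.97), Mrps31 (10.5 FPKM, range 6.71 to 14.5) and Mrps9 (14.6 FPKM, range 7.88 to 20.5) were lowest. Within a group the median coefficient of variation over members was 16.0% in Tm_LPS, 9.59% in Tm, 12.3% in LPS and 10.8% in Control.

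Tunicamycin alone moved the members in both directions. Against Control, 13 of the 77 members rose and 20 fell, while 44 did not pass (limma on log2(FPKM + 1), Benjamini-Hochberg adjusted p under 0.05 over all 10311 genes). That is 42.9% of members, against a background of 34.5% of all genes tested (17.9% higher and 16.6% lower). The large subunit had 8 rises and 13 falls among 48, and the small subunit 5 rises and 7 falls among 29. The median log2 fold change was -0.12 in the large and -0.10 in the small subunit, beside 0.03 over all genes tested. Both subunit medians turned positive, to 0.09 and 0.06, once the trend of change with coding length described further on was removed.

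To show what the start regions of falling and rising members look like, the 250 bases before the start of 3 genes are printed from RefSeq (GRCm38.p6), 5′ to 3′ on the strand of the gene. Of the 14 members that passed in Tm against Control and hold NRF1 or ETS letters there, 4 have a stretch that touches no exon of the GENCODE annotation, and the 3 of these with a single start in the table are shown. Capitals mark the motif, searched on both strands as GCGC, any base and TGCGC for NRF1 (nuclear respiratory factor, a regulator of nuclear genes for mitochondria) and CCGGAAG for the ETS family.
Mrpl34 (chr8:71464676-71464925, plus strand): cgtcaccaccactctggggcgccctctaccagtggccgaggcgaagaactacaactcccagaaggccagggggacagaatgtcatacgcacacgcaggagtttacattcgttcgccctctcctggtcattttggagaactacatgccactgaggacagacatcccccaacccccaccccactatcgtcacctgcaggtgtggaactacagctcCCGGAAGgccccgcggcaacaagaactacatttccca
Mrpl45 (chr11:97315466-97315715, plus strand): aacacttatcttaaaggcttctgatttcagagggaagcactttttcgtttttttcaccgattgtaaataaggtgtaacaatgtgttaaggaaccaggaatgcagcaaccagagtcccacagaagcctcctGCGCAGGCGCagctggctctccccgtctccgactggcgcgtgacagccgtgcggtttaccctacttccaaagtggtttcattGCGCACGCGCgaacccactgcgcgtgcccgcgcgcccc
Mrps22 (chr9:98601680-98601929, minus strand): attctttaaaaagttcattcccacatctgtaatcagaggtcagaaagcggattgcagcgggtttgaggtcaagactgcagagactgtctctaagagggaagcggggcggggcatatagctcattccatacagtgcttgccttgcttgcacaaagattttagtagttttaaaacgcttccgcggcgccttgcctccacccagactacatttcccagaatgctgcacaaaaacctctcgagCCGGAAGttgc
Mrpl34, with ETS letters, fell with tunicamycin. Mrpl45, with NRF1 letters at 2 places, and Mrps22, with ETS letters, rose.

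Windows of 300 bases, with 250 before and 50 after the start, were found for 68 of the 77 members. RefSeq and GENCODE do not always place the start at the same base, and in 45 of the 68 the stretch before a RefSeq start reaches into GENCODE exons of the same gene. The NRF1 letters were present in 13 of them (19.1%), against 12.8% of the 7953 tested genes with a window and 5.19% of all 27025 genes in the table. ETS letters were present in 25 (36.8%), against 22.5% of tested genes, and the YY1 motif, AAGATGG followed by CGG, in 5 (7.35%), against 2.80%. CACGTG, the E-box bound by Myc, was present in 5 (7.35%), against 12.4%, and TGATGNAA, a C/EBP-ATF composite motif of the stress response, in 0 of 68, against 2.80%. By direction in Tm against Control, NRF1 letters were in 5 of 11 rising and 3 of 20 falling members with a window, and ETS letters in 3 of 11 and 8 of 20. A match is a description of the letters and no evidence of binding.

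The deepest fall was that of Mrpl18, a large-subunit protein of the particle's central protuberance that is related to a bacterial ribosomal protein. The gene lies on chromosome 17 (bases 12911349 to 12916345, minus strand, mm10). Mrpl18 had 24.5, 35.2 and 26.4 FPKM in Tm, against 104, 119 and 113 FPKM in Control. The groups lay far apart, and the level in Tm was 3.84-fold lower on the FPKM + 1 scale (log2 fold change -1.94, SE 0.14, limma adjusted p = 3.36e-08). Exons of Mrpl18 overlap those of Tcp1, a cytosolic chaperonin subunit, and the sources used here do not say whether strand was used in counting, so reads of these genes cannot be told apart there.

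Mrpl42, a subunit found only in mitochondria with the highest mean level over the 12 libraries, lies on chromosome 10 (bases 95480805 to 95501940, minus strand, mm10). It had 112, 124 and 119 FPKM in Tm, against 269, 304 and 287 FPKM in Control, a log2 fold change of -1.27 (SE 0.08, limma adjusted p = 7.2e-09). Its libraries were tightly grouped, and the least of the Control values stood well above every Tm value. Mrpl51, another mitochondrion-specific subunit, had 26.8, 34.0 and 28.8 FPKM in Tm and 64.5, 67.0 and 58.4 FPKM in Control (log2 fold change -1.06, SE 0.15, limma adjusted p = 5.61e-05). Mrpl11, which forms the base of the stalk that binds translation factors, had 3.47, 4.51 and 3.32 FPKM in Tm and 8.70, 8.53 and 9.39 FPKM in Control (log2 fold change -1.06, SE 0.21, limma adjusted p = 0.000947). Neither gene's groups overlapped. The partners of Mrpl11 at the stalk, Mrpl10 and Mrpl12, did not pass in this comparison, with log2 fold changes of 0.20 (SE 0.15) and -0.18 (SE 0.16).

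Mrpl33, a very small large-subunit protein with a bacterial counterpart, had 114, 126 and 138 FPKM in Tm, against 208, 269 and 284 FPKM in Control (log2 fold change -0.99, SE 0.14, limma adjusted p = 4.21e-05). The groups did not overlap. The other large-subunit members that fell were Mrpl20, Mrpl23, Mrpl28, Mrpl30, Mrpl34, Mrpl36, Mrpl40 and Mrpl48, with log2 fold changes between -0.88 (Mrpl34) and -0.30 (Mrpl20). Those of Mrpl20, Mrpl30, Mrpl34, Mrpl36 and Mrpl40 no longer passed once the length trend was removed, and the call of Mrpl20 was lost under 8 of 16 alternatives. Exons of Mrpl36 overlap those of Ndufs6 and exons of Mrpl48 those of Rab6a, so these falls carry the same uncertainty as Mrpl18. Over both subunits the falls numbered 11 to 19 when the Tm and Control libraries were left out in turn, with 11 without Control replicate 2. The calls of Mrpl23, Mrpl28, Mrpl30, Mrpl36, Mrpl40, Mrpl48 and the small-subunit genes Mrps26 and Mrps33 were followed only with the length trend removed. Some of the calls lost without Control replicate 2 were among these genes.

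The large-subunit genes that rose were led by Mrpl44 and Mrpl39, both mitochondrion-specific. Mrpl44, whose protein has a ribonuclease III fold and is mutated in a human cardiomyopathy, had 31.6, 32.6 and 30.7 FPKM in Tm, against 21.6, 13.2 and 19.5 FPKM in Control (log2 fold change 0.80, SE 0.19, limma adjusted p = 0.00317). Mrpl39, which resembles a part of threonyl-tRNA synthetase, had 65.9, 56.2 and 52.9 FPKM in Tm, against 32.5, 34.0 and 33.1 FPKM in Control (log2 fold change 0.79, SE 0.13, limma adjusted p = 0.000159). Every Tm library was above every Control library for both. Mrpl9 (0.57), Mrpl19 (0.55), Mrpl46 (0.51), Mrpl3 (0.46), Mrpl32 (0.43) and Mrpl45 (0.40) also rose, in log2 fold change. Mrpl32 is a protein whose cleavage by a mitochondrial protease precedes assembly of the particle, and Mrpl45 anchors it at the inner membrane near the tunnel exit. Exons of Mrpl9 overlap those of Oaz3 and exons of Mrpl19 those of Gcfc2, so reads of these pairs cannot be told apart there. Oaz3 itself had 0, 0 and 0 FPKM in Control and 0.0632, 0 and 0 FPKM in Tm. The Tm and Control values of Mrpl9 overlapped. Of 16 alternatives, 7 ended the call of Mrpl9, 4 that of Mrpl19, 3 that of Mrpl32 and 1 that of Mrpl46, and in each case these included the fit without Control replicate 1. Without Control replicate 1 the number of rising members was 7, and it was 7 to 13 over the Tm and Control libraries left out in turn. The 7 were Mrpl3, Mrpl39, Mrpl44, Mrps18b, Mrps22, Mrps30 and Mrps35, so the call of Mrpl45 was also lost there. Mrpl45 was not followed under the other alternatives, except that it passed narrowly with the length trend removed (log2 fold change 0.38, limma adjusted p = 0.0498).

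In the small subunit 1 gene stood apart among the falls. Mrps21, related to the bacterial small-subunit protein of the same number and encoded on chromosome 3 (bases 95862634 to 95871519, minus strand, mm10), had 58.7, 62.9 and 77.6 FPKM in Tm, against 147, 181 and 166 FPKM in Control. No Tm value came near the Control values, and the log2 fold change was -1.30 (SE 0.15, limma adjusted p = 6.71e-06). The other 6 falls, of Mrps24, Mrps14, Mrps15, Mrps10, Mrps26 and Mrps33, lay between -0.50 (Mrps24) and -0.34 (Mrps33) in log2 fold change. Those of Mrps24, Mrps14, Mrps10, Mrps26 and Mrps33 did not pass with the length trend removed. The fall of Mrps15 was not called without Control replicate 2 or Tm replicate 3, that of Mrps14 without Control replicate 2, and that of Mrps10 without Control replicate 2, Tm replicate 1 or 2 or the variance trend. Those of Mrps26 and Mrps33 were not followed under the other alternatives.

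Among the small-subunit rises, Mrps22, a mitochondrion-specific protein mutated in human mitochondrial disease, had 39.8, 34.8 and 36.1 FPKM in Tm, against 23.0, 17.2 and 24.3 FPKM in Control (log2 fold change 0.77, SE 0.15, limma adjusted p = 0.000745). Mrps35 had 37.1, 27.6 and 26.0 FPKM in Tm and 21.8, 16.2 and 15.6 FPKM in Control (log2 fold change 0.72, SE 0.17, limma adjusted p = 0.00323). For both genes the groups were separate. Mrps30, in the large subunit by place, rose by 0.62 on the log2 scale (SE 0.14, limma adjusted p = 0.00215), and its exons overlap those of the gene model B430218F22Rik. Mrps31 rose by 0.50, a call that was lost under 8 of 16 alternatives, among them removal of the length trend, where its log2 fold change was 0.46, and without Control replicate 1 or 3 or Tm replicate 1 or 2.

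The 3 paralogues Mrps18a, Mrps18b and Mrps18c, which descend from 1 bacterial protein, were measured side by side. Mrps18b had 131, 136 and 131 FPKM in Tm, against 101, 103 and 96.2 FPKM in Control (log2 fold change 0.41, SE 0.09, limma adjusted p = 0.00203), with all Tm libraries above all Control libraries. Mrps18c had 135, 147 and 158 FPKM in Tm and 147, 189.7 and 190.0 FPKM in Control, a log2 fold change of -0.25 (SE 0.14) that did not pass. Mrps18a had a log2 fold change of -0.09 (SE 0.12) and overlapping groups. The differences between the paralogues' changes were not tested.

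**Figure D1:**
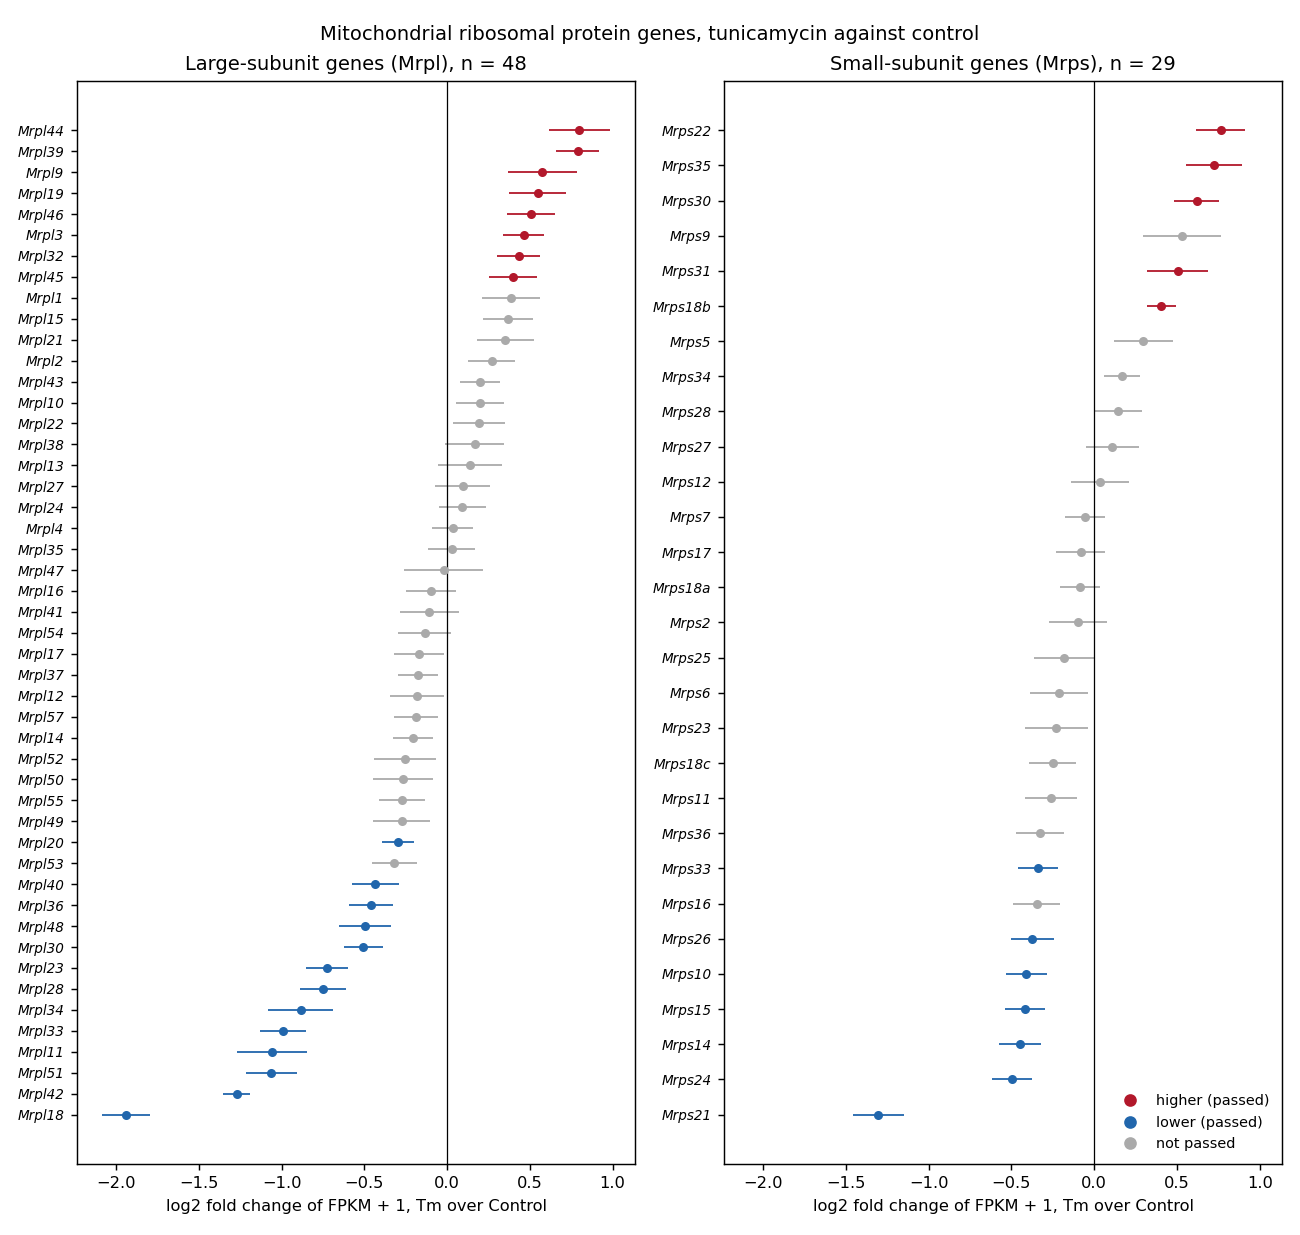
Log2 fold change of FPKM + 1, Tm over Control, for each of the 77 members, with large-subunit symbols on the left and small-subunit symbols on the right. Points are limma estimates from 3 libraries per group and bars are 1 SE; colours mark members that passed at an adjusted p under 0.05. Both subunits run from clear falls, led by Mrpl18 and Mrps21, to clear rises, led by Mrpl44 and Mrps22.

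**Figure D2:**
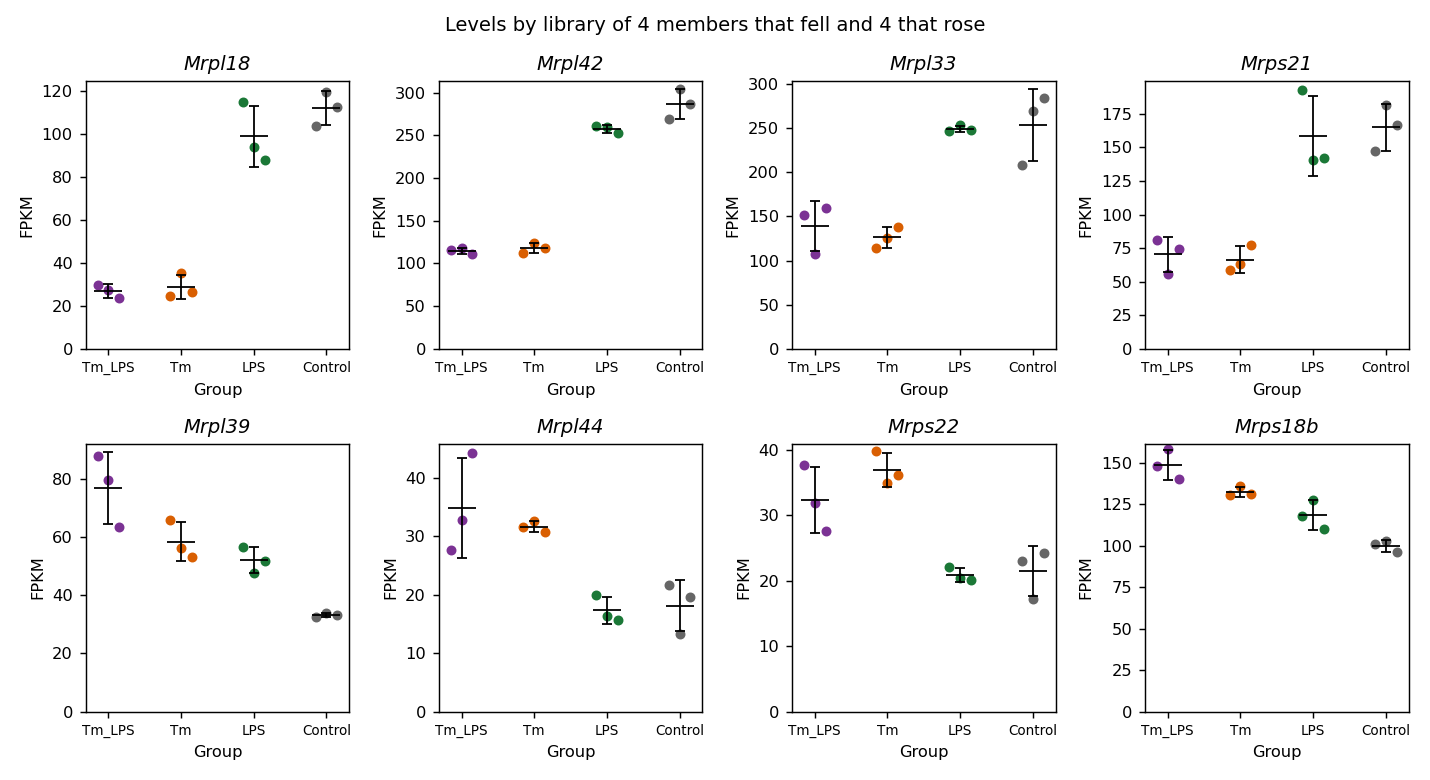
FPKM by library (points) with the group mean and SD (bars, n = 3) for Mrpl18, Mrpl42, Mrpl33 and Mrps21, which fell with tunicamycin, and for Mrpl39, Mrpl44, Mrps22 and Mrps18b, which rose. In all 8 panels the Tm libraries lie on 1 side of the Control libraries and the Tm_LPS libraries on the same side of the LPS libraries.

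Summed over members, the large subunit lost more FPKM than the small subunit with tunicamycin. The 48 large-subunit genes summed to 2317, 2275 and 2339 FPKM in Tm, against 2735, 3033 and 2918 FPKM in Control. The 29 small-subunit genes summed to 1384, 1408 and 1438 FPKM in Tm, against 1474, 1699 and 1619 FPKM in Control. Both sums were lower in every Tm library than in every Control library, and the total over all genes was also lower in Tm. Members together took 0.656% to 0.671% of all FPKM in Tm and 0.697% to 0.741% in Control. Their share was 0.563% to 0.602% in Tm_LPS and 0.626% to 0.707% in LPS. The mean share was thus also lower with LPS alone (0.659%) than in Control (0.723%), with overlapping ranges. The mean sum of members was 4463 FPKM in LPS and 4493 FPKM in Control, while the mean total over all genes was 676709 and 620978 FPKM. Large-subunit sums were 2072 to 2529 FPKM in Tm_LPS and 2740 to 3090 FPKM in LPS, without overlap. Small-subunit sums overlapped, with 1315 to 1482 FPKM in Tm_LPS and 1431 to 1708 FPKM in LPS.

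The ratio of the large-subunit sum to the small-subunit sum was 1.67, 1.62 and 1.63 in Tm, against 1.86, 1.78 and 1.80 in Control. With both agents it was 1.71, 1.58 and 1.64 in Tm_LPS, against 1.81, 1.79 and 1.92 in LPS. Neither pair of groups overlapped, and the separation held by place in the particle, where the mean ratio was 2.06 in Tm_LPS, 2.04 in Tm, 2.22 in LPS and 2.19 in Control. Mrpl42, Mrpl33 and Mrpl18 were chosen as the largest falls in FPKM after their values were seen. They made up 64.8% of the net fall of the large-subunit sum, which was 585 FPKM in the means. Without these 3 genes, and with the small-subunit sum left whole, the ratio by symbol no longer separated either pair of groups. It was then 1.41 to 1.49 in Tm and 1.38 to 1.46 in Control libraries. Its means were 1.44 in Tm_LPS and 1.45 in LPS, with overlapping ranges. In the small subunit, Mrps21 alone accounted for 52.5% of a net fall of 187 FPKM.

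**Figure D3:**
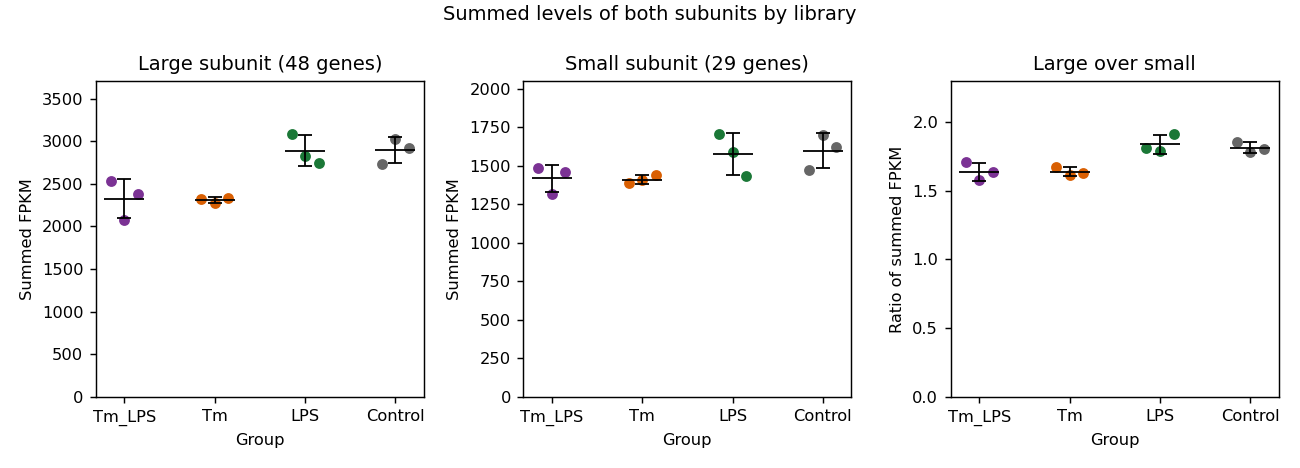
Summed FPKM of the 48 large-subunit genes (left) and the 29 small-subunit genes (middle), and their ratio (right), by library (points) with group mean and SD (bars, n = 3). The ratio is 1.58 to 1.71 in Tm_LPS and 1.62 to 1.67 in Tm libraries, below the 1.79 to 1.92 of LPS and 1.78 to 1.86 of Control libraries.

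When tunicamycin came before LPS, falls outnumbered rises among the members again. In Tm_LPS against LPS, 6 members rose and 18 fell, and 53 did not pass, beside a background of 28.9% of all genes passing (13.8% higher and 15.1% lower). The large subunit had 4 rises and 13 falls, and the small subunit 2 rises and 5 falls. The median log2 fold change was -0.16 in the large and -0.10 in the small subunit, beside 0.00 over all genes, and these medians became 0.07 and 0.12 with the length trend removed, where 10 members rose and 9 fell. Without LPS replicate 1 the falls numbered 11, and over the libraries left out in turn 11 to 21.

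Mrpl18 had 29.8, 27.5 and 23.5 FPKM in Tm_LPS, against 115, 93.9 and 87.6 FPKM in LPS (log2 fold change -1.83, SE 0.14, limma adjusted p = 9.75e-08). Mrps21 had 80.8, 55.9 and 74.2 FPKM in Tm_LPS, against 193, 141 and 142 FPKM in LPS (log2 fold change -1.16, SE 0.15, limma adjusted p = 2.97e-05). In both genes the highest Tm_LPS library was far below the lowest LPS library. Mrpl42 (-1.16), Mrpl34 (-1.14), Mrpl51 (-1.07) and Mrpl11 (-0.97) followed among the large-subunit falls, in log2 fold change. Mrps16, a small-subunit protein with a bacterial counterpart, had 37.3, 40.1 and 53.4 FPKM in Tm_LPS and 74.2, 61.8 and 68.6 FPKM in LPS (log2 fold change -0.65, SE 0.14, limma adjusted p = 0.00279), a call that ended with the length trend removed. The stalk genes were split: Mrpl12 fell (-0.57, SE 0.16) and Mrpl10 rose (0.48, SE 0.15). The call of Mrpl12 was lost with all genes kept and when LPS replicate 1, LPS replicate 3 or Tm_LPS replicate 2 was left out, the last giving a log2 fold change of -0.33, and that of Mrpl10 with only the libraries of the contrast and without LPS replicate 3 or Tm_LPS replicate 3.

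The rises in this comparison were those of Mrpl44, Mrpl2, Mrps22, Mrpl39, Mrpl10 and Mrps18b. Mrpl44 had 27.6, 32.7 and 44.3 FPKM in Tm_LPS, against 19.9, 16.4 and 15.6 FPKM in LPS (log2 fold change 0.95, SE 0.19, limma adjusted p = 0.00108). Mrpl2, a core protein near the site of peptide bond formation, had 81.3, 79.0 and 104 FPKM in Tm_LPS, against 63.9, 56.5 and 43.9 FPKM in LPS (log2 fold change 0.68, SE 0.14, limma adjusted p = 0.00193). The groups were separate for both. Mrps36 fell by 0.44 on the log2 scale (SE 0.15, limma adjusted p = 0.0346) with overlapping groups, and not with the length trend removed.

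The fold changes of Tm against Control and Tm_LPS against LPS use separate libraries, so they can be set side by side. The calls in both rest on 1 estimate of each gene's spread over all 12 libraries, so they are not independent. Of the members, 15 fell in both comparisons, which is 75% of the falls in Tm and 83.3% of those in Tm_LPS, beside 61.1% and 67.2% over all genes tested. These were Mrpl11, Mrpl18, Mrpl20, Mrpl23, Mrpl28, Mrpl33, Mrpl34, Mrpl36, Mrpl40, Mrpl42, Mrpl48, Mrpl51, Mrps15, Mrps21 and Mrps24, so 12 were large-subunit and 3 small-subunit genes. In Tm_LPS against LPS, the call of Mrps15 was lost under 8 of 16 alternatives and that of Mrpl20 under 7 of 16. The calls of Mrpl23, Mrpl28, Mrpl36, Mrpl40 and Mrpl48 were followed only with the length trend removed. Falls in that comparison numbered 11 without LPS replicate 1, and some of the calls lost there were among these genes. Mrpl39, Mrpl44, Mrps18b and Mrps22 rose in both, which is 30.8% of the rises in Tm and 66.7% of those in Tm_LPS, beside 50.6% and 65.7% over all genes tested. With the length trend removed, 6 members fell in both (Mrpl11, Mrpl18, Mrpl28, Mrpl42, Mrpl51 and Mrps21) and 5 rose in both, the 4 above and Mrpl32. No member passed in opposite directions. The sign was shared by 69 of 77 members (89.6%), against 73.6% of all genes tested. Across the 77 genes, which are not independent replicates, the log2 fold changes correlated with Pearson's r of 0.91 and Spearman's rho of 0.86, beside 0.66 and 0.64 across all 10311 genes.

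**Figure D4:**
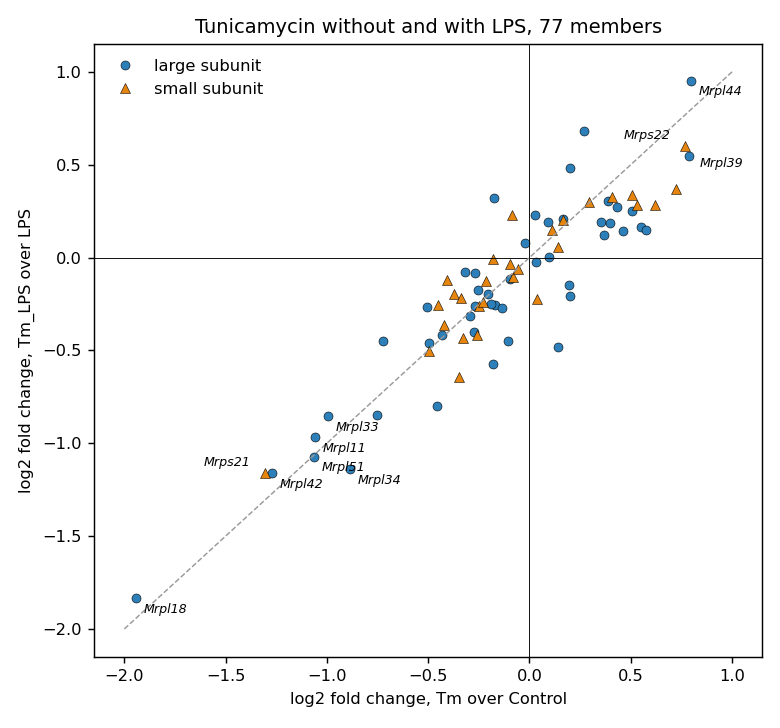
Log2 fold change of each member in Tm over Control (horizontal) and in Tm_LPS over LPS (vertical), with large-subunit genes as circles and small-subunit genes as triangles; the dashed line marks equal change. The points lie along the line (r of 0.91 over 77 genes), with Mrpl18 at the lower end and Mrpl44 at the upper end.

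LPS alone changed few members. Against Control, 4 rose, none fell and 73 did not pass, beside a background of 18.4% of all genes passing (10.5% higher and 7.86% lower). All 4 were large-subunit genes. No small-subunit gene passed in limma, where 3 had an unadjusted p under 0.05 on the higher side and 1 on the lower side. The number of members that fell was 1 with a filter at 5 FPKM and with a robust fit, and 5 after quantile normalization. The median log2 fold change was -0.01 in the large and -0.05 in the small subunit, beside 0.00 over all genes.

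Mrpl39 had 56.6, 47.7 and 51.5 FPKM in LPS, against 32.5, 34.0 and 33.1 FPKM in Control (log2 fold change 0.63, SE 0.13, limma adjusted p = 0.00189). Mrpl16, a core protein with a bacterial counterpart, had 31.5, 32.6 and 26.0 FPKM in LPS and 20.7, 21.5 and 20.8 FPKM in Control (log2 fold change 0.49, SE 0.15, limma adjusted p = 0.0299). Mrpl3 rose by 0.46 (SE 0.12, limma adjusted p = 0.0146) and Mrpl32 by 0.42 (SE 0.13, limma adjusted p = 0.0351) on the log2 scale. In each of the 4 genes the lowest LPS library was above the highest Control library. The call of Mrpl39 held under all 16 alternatives that apply to it, whereas those of Mrpl16, Mrpl3 and Mrpl32 were lost under 6, 3 and 7 of the 16, and 1 or 2 members rose without Control replicate 1 (2), Control replicate 2 (2), LPS replicate 1 (1) or LPS replicate 2 (2).

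Within cells given tunicamycin, LPS was followed by 2 rises and 4 falls among the members in Tm_LPS against Tm, with 71 not passing, beside a background of 15.7% of all genes passing (8.69% higher and 7% lower). The exposure time of Tm is not given, so a difference in tunicamycin time cannot be told apart from LPS here. Mrpl43, a mitochondrion-specific large-subunit protein, had 29.6, 29.9 and 25.5 FPKM in Tm_LPS, against 43.5, 43.4 and 48.8 FPKM in Tm (log2 fold change -0.66, SE 0.12, limma adjusted p = 0.00109). Mrpl19 had 6.65, 7.72 and 8.52 FPKM in Tm_LPS, against 12.2, 14.0 and 14.2 FPKM in Tm (log2 fold change -0.75, SE 0.17, limma adjusted p = 0.00687). For both genes the Tm_LPS values were all below the Tm values. Exons of Mrpl43 overlap those of Twnk, listed as Peo1, so reads of these genes cannot be told apart there. Peo1 also fell in this comparison (log2 fold change -0.86, SE 0.22, limma adjusted p = 0.0146). Mrpl41 fell by 0.62 (SE 0.18) and Mrps35 by 0.55 (SE 0.17) on the log2 scale, and Mrpl16 and Mrpl39 rose by 0.47 (SE 0.15) and 0.39 (SE 0.13). The fall of Mrpl41 was not called without Tm replicate 2, Tm_LPS replicate 2 or Tm_LPS replicate 3. That of Mrps35 was not called without Tm replicate 1 or 2, Tm_LPS replicate 2 or 3, a filter or the variance trend. Neither rise was called without Tm replicate 2, Tm replicate 3 or Tm_LPS replicate 2, without a filter, after quantile normalization, without the variance trend or with only the libraries of the contrast.

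The effect of LPS was not shown to differ with and without tunicamycin for any member. In the interaction term of limma, 0 of 77 members passed, beside a background of 3.37% of all genes (1.41% higher and 1.96% lower), and at an unadjusted p under 0.05 there were 1 higher and 2 lower, all large-subunit genes. Without Tm_LPS replicate 1 there was 1 member that passed, on the lower side. The standard errors of the interaction are wider than those of the single contrasts, and a p that misses the threshold does not show equal effects. The term may also hold a difference in tunicamycin time between Tm_LPS and Tm.

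The direction of a member's change with tunicamycin went with the length of its coding sequence. In Tm against Control the rising members had a median coding length of 960 bases (range 561 to 1326) and the falling members 490.5 bases (range 195 to 774), with 561 bases in those that did not pass. Across the 77 genes Spearman's rho between coding length and log2 fold change was 0.68 (Pearson's r 0.63, against the log2 of the length), given as a description over genes. It was 0.71 in Tm_LPS against LPS and -0.03 in LPS against Control. With the full spliced length, rho in Tm against Control was 0.35. Over the 9998 tested genes that have a coding length in the annotation, rho was 0.18 in Tm against Control and 0.24 in Tm_LPS against LPS.

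Falls were also frequent among short genes of the whole table. Among members below 576 coding bases, 1 of 38 rose and 13 fell (34.2%) in Tm against Control. Among all 1254 tested genes of that length, members included, 10.7% rose and 38.8% fell. Longer members rose in 12 of 39 cases and fell in 7, while among all longer genes 19.1% of 8744 rose and 13.7% fell. With the trend of change on coding length over all genes removed, an alternative chosen after seeing the data, 14 members rose and 10 fell in Tm against Control. Of those, 12 and 10 had passed in the same direction before, and the new rises were of Mrpl21 and Mrpl43. Mrpl18 kept a log2 fold change of -1.76, Mrpl42 of -0.98, Mrps21 of -0.81, Mrpl39 of 0.75, Mrpl44 of 0.77 and Mrps22 of 0.73, and all 6 still passed. Falling members also had higher levels, with a median of 60.4 FPKM over the 12 libraries, against 29.3 FPKM for rising members. What part length has in the deposited FPKM was not tested.

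**Figure D5:**
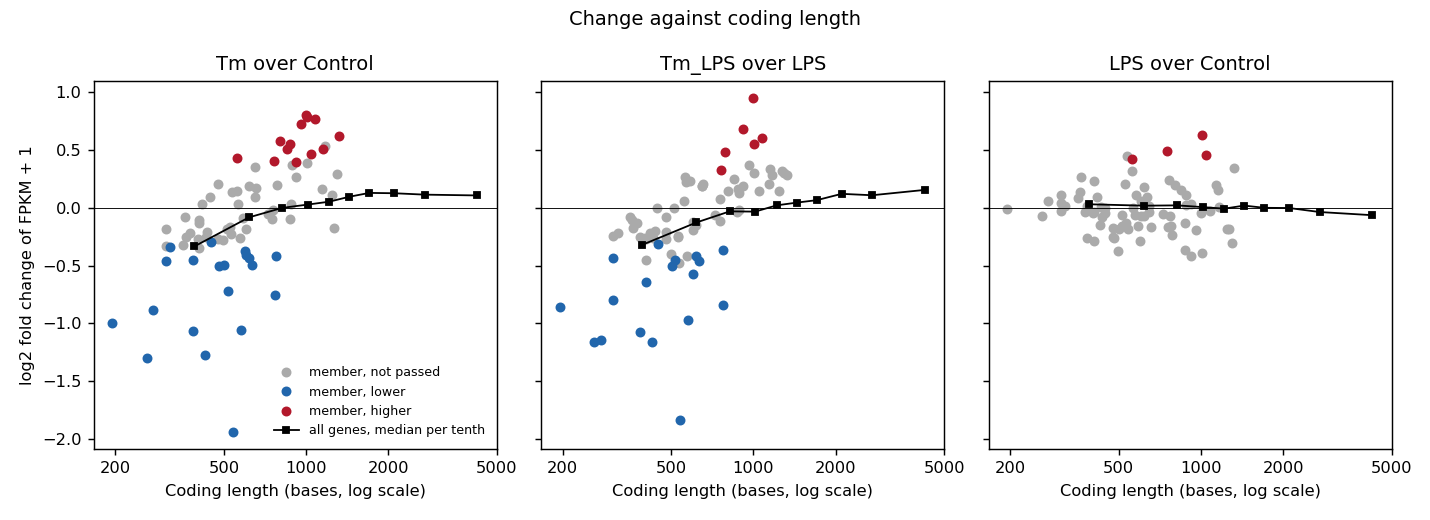
Log2 fold change of FPKM + 1 against coding length (log axis) for the 77 members in Tm over Control, Tm_LPS over LPS and LPS over Control. Black squares are medians over all genes in 10 bins of length. In both tunicamycin panels the short members lie low and the long ones high (rho of 0.68 and 0.71), and in the LPS panel no such slope is seen (rho of -0.03).

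The members were also counted by ancestry. Of the 45 members with a bacterial counterpart, 4 rose and 14 fell in Tm against Control, and of the 31 mitochondrion-specific members 9 rose and 6 fell. That is 40% and 48.4% passing, beside the background of 34.5%. In Tm_LPS against LPS the counts were 2 rises and 13 falls among members with a bacterial counterpart, and 4 rises and 4 falls among mitochondrion-specific members. The background there was 13.8% of all genes higher and 15.1% lower. The difference between these groups was not tested.

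Many members share a promoter region with another gene. Of the 77, 33 have a gene on the opposite strand that starts within 1000 bases, and 29 of those partners were tested. In Tm against Control 9 of these members and 11 of the partners passed, beside the background of 34.5%, and both passed in 2 of the pairs: Mrpl36 and Ndufs6 in the same direction, and Mrpl32 and Psma2 in opposite directions. Exons of Mrpl36 and Ndufs6 overlap, so reads of these genes cannot be told apart there. Mrpl18 and Tcp1 start 644 bases apart, and Tcp1 had a log2 fold change of -0.26 (limma adjusted p = 0.051), against -1.94 for Mrpl18. Mrpl46 and Mrps11, both members, start 412 bases apart, and their log2 fold changes were 0.51 and -0.26 (limma adjusted p = 0.0119 and 0.225). Exons of 17 members overlap those of another coding gene.

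Genes that work with the mitochondrial ribosome were described from lists drawn up by function. Of 6 other subunits without an Mrp symbol, 1 fell in Tm against Control, Chchd1 (log2 fold change -0.38, SE 0.12). Of 24 assembly factors 9 rose and 1 fell, with a median log2 fold change of 0.45. The largest were Ngrn (1.41, SE 0.38), Mterf4 (1.36, SE 0.29), Mterf3 (1.10, SE 0.16) and Mrm1 (1.10, SE 0.19), of which Mterf4 guides a methyltransferase to the ribosomal RNA and Mrm1 methylates it. Of 16 mitochondrial translation factors 3 rose, among them the initiation factor Mtif2 (0.72, SE 0.19), and 1 fell. Of 14 tested genes for mitochondrial DNA expression and maintenance 5 rose and none fell in limma, where 1 was lower at an unadjusted p under 0.05, with Peo1, the DNA helicase Twinkle, at 1.05 (SE 0.22) and Tfam, which packages the DNA, at 0.91 (SE 0.26). The background for these counts is the 34.5% given above. Exons of Peo1, also named Twnk, overlap those of Mrpl43, so reads of these genes cannot be told apart there.

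The products of mitochondrial translation meet nuclear-encoded respiratory chain subunits, which were counted alongside cytosolic ribosomal protein genes. Of 75 tested respiratory chain and ATP synthase genes, 3 rose and 47 fell in Tm against Control, with a median log2 fold change of -0.45. Of 80 cytosolic ribosomal protein genes none rose and 63 fell, with a median of -0.52, and none was higher at an unadjusted p under 0.05. Over all genes tested, 17.9% were higher and 16.6% lower in Tm against Control. In Tm_LPS against LPS the counts were 2 rises and 42 falls of respiratory chain genes and 1 rise and 36 falls of cytosolic ribosomal protein genes. The background there was 13.8% of all genes higher and 15.1% lower. In Tm_LPS against Tm, 20 cytosolic ribosomal protein genes rose, beside the 2 rises among the 77 members and 8.69% of all genes tested. The differences between these lists and the members were not tested. The counts of these lists were not set beside genes of like coding length. Among all genes below 576 coding bases, 38.8% fell in Tm against Control and 35.8% in Tm_LPS against LPS.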

How the data were processed

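RNA sequencing values were taken as deposited by the authors, as FPKM per gene symbol and library in 1 table of 24346 genes and 12 libraries. The submitters' processing notes name the genome build mm10, Cufflinks 2.2.1, SAMtools 0.1.19, TopHat2 2.0.13 and Bowtie2 2.2.3. The gene annotation, strand setting and scaling are not given in the sources used here. Read depth is unknown, so precision rests on the spread between 3 libraries per group, and FPKM divides by a transcript length that the authors' tool set.

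Genes with at least 1 FPKM in at least 3 libraries were kept (10311). log2(FPKM + 1), with a pseudocount of 1, was fitted with limma 3.58.1 (lmFit and then eBayes, trend on; R 4.3.3). The 12 libraries entered 1 model of 4 group means, from which 5 contrasts were taken. Fold changes are on that scale, which understates those of low genes. The threshold was 0.05 on p-values adjusted over all tested genes by Benjamini and Hochberg. With 3 libraries against 3, an exact permutation test cannot go below p = 0.1, so none was used. The method was tested on simulated data.

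Coordinates and lengths come from GENCODE M21 (GRCm38, the build named mm10) and use the transcript with the longest coding sequence. Promoters come from RefSeq GRCm38.p6. The members and lists were chosen with earlier results of these data known. Genes were named by a rule: per contrast the 5 largest passing rises and falls of each subunit, the 3 highest and 3 lowest levels of each subunit, the Mrps18 paralogues, Mrps30, Mrps36, the stalk genes, Mrps12, and up to 4 passing genes of each other list. Some genes that the rule covers are not described, among them Mrps12 and the largest changes of the respiratory chain list. Every member that passed in Tm against Control is named; those outside the rule, and the head-to-head partners, were chosen after their values were seen. Figures were drawn with matplotlib 3.10.9. Alternatives were a filter at 5 FPKM or none, a pseudocount of 0.1, other scalings and fits, subunits by place, the replicate block, each library left out in turn and, chosen after seeing the data, removal of the length trend.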

Additional observations from a re-analysis of the deposited data

Results flagged for a closer look

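By the interaction term of limma, the change with LPS differed between cells with and without tunicamycin for 3 genes described in detail here. None of them was among the 77 members, of which 1 higher and 2 lower had an unadjusted p under 0.05. Myc, a transcription factor of cell growth, had 27.1, 26.3 and 28.5 FPKM in Tm_LPS, against 13.8, 16.7 and 13.7 FPKM in Tm, and 18.1, 9.02 and 11.6 FPKM in LPS, against 31.6, 38.5 and 37.6 FPKM in Control. Its log2 change with LPS was 0.85 (SE 0.19) with tunicamycin and -1.45 (SE 0.19) without it, a difference of 2.31 (SE 0.27, limma adjusted p = 6e-05), and all Tm_LPS libraries were above all Tm libraries while all LPS libraries were below all Control libraries. Il1b had 347, 271 and 253 FPKM in Tm_LPS, against 0.168, 0.455 and 0.434 FPKM in Tm, and 815, 784 and 820 FPKM in LPS, against 0.379, 0.535 and 0.775 FPKM in Control. It rose with LPS in both settings, by 7.75 (SE 0.15) with tunicamycin and 9.02 (SE 0.15) without it on the log2 scale, a difference of -1.27 (SE 0.21, limma adjusted p = 0.00153). Mterf3, an assembly factor of the large subunit, had 17.8, 24.8 and 19 FPKM in Tm_LPS, against 21.5, 27.7 and 24.5 FPKM in Tm, and 18.7, 15.9 and 18.6 FPKM in LPS, against 9.98, 13.1 and 9.87 FPKM in Control. Its log2 change with LPS was -0.26 (SE 0.16) with tunicamycin and 0.65 (SE 0.16) without it, a difference of -0.91 (SE 0.23, limma adjusted p = 0.0407). Cd14, Rps15 and Rpl28, from the other lists, also passed this term, with differences of 0.66, 0.66 and 0.50. Of all tested genes, 3.37% passed this term. What lies behind these differences was not tested, and a difference in tunicamycin time between Tm_LPS and Tm cannot be told apart from LPS.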

How the results depend on the processing

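With the trend on coding length removed, members lower in Tm against Control numbered 10, with medians of 0.0876 in the large and 0.0601 in the small subunit, and in Tm_LPS against LPS 10 were higher and 9 lower, with medians of 0.0688 and 0.116. In LPS against Control, members lower numbered 1 with a filter at 5 FPKM, 1 with a robust fit, 1 with the length trend removed and 5 after quantile normalization, where 1 was higher and the medians were -0.11 (large) and -0.16 (small). In Tm_LPS against Tm, members higher numbered 1 with a pseudocount of 0.1 and 0 without a filter, after quantile normalization, without the variance trend and with only the libraries of the contrast, and after quantile normalization 8 were lower, with medians of -0.16 (large) and -0.19 (small). There the share of higher calls over all genes was 44.9%, against 55.4% as reported. The ratio of large to small subunit by place was 2.06 in Tm_LPS, 2.04 in Tm, 2.22 in LPS and 2.19 in Control. The cause of these shifts was not tested.

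Leaving out 1 library in turn gave 1 to 5 members higher and 0 to 1 lower in LPS against Control, 7 to 13 and 11 to 19 in Tm against Control, 5 to 8 and 11 to 21 in Tm_LPS against LPS, and 0 to 2 and 2 to 5 in Tm_LPS against Tm, with 0 to 1 lower in the interaction. Without Tm replicate 2, 1068 genes passed in Tm_LPS against Tm, where the range was 1068 to 1545, and 2 members were lower; without Tm replicate 3, 228 passed the interaction, where it was 228 to 352. The small-subunit median of Tm_LPS against LPS was -0.151 to -0.00655, the value nearest 0 being that without Tm_LPS replicate 2, and the large-subunit median of Tm_LPS against Tm was -0.097 to 0.0519. With the replicate number as a block, 3552 genes passed in Tm against Control, 2993 in Tm_LPS against LPS, 1858 in LPS against Control, 1628 in Tm_LPS against Tm and 348 in the interaction. The number did not pair the libraries, since deviations of same-numbered libraries correlated at -0.04 to 0.09 in 18 pairs. A left-out library leaves 2 in its group. FPKM hides depth and changes in total RNA per cell.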

Other observations

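Genes that bring proteins into mitochondria and fold or degrade them there moved in different directions with tunicamycin. Of 14 mitochondrial chaperones and proteases, 5 rose and 1 fell both in Tm against Control and in Tm_LPS against LPS, beside backgrounds of 34.5% and 28.9% of all genes passing. In log2 fold change, Lonp1, a matrix protease, rose by 1.52 (SE 0.17) in Tm against Control and 1.54 (SE 0.17) in Tm_LPS against LPS, and Hspa9, the matrix chaperone of the import motor, by 1.39 (SE 0.11) and 1.28 (SE 0.11) in these comparisons. Of 23 import genes of the TIM and TOM complexes, 1 rose and 9 fell in Tm against Control, and none rose and 8 fell in Tm_LPS against LPS, where none was higher at an unadjusted p under 0.05. Timm17a, a channel subunit of the inner membrane, had log2 fold changes of -0.97 (SE 0.12) and -0.73 (SE 0.12). These counts were not set beside genes of like coding length.

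Of 9 tested regulators of nuclear genes for mitochondria, 3 rose and 2 fell in Tm against Control, beside a background of 34.5% of all genes passing. In log2 fold change, Tfam rose by 0.91 (SE 0.26), Nrf1 by 0.58 (SE 0.17) and Gabpb1 by 0.43 (SE 0.16), while Esrra (-0.54, SE 0.19) and Myc (-1.23, SE 0.19) fell. In Tm_LPS against LPS, 2 rose and none fell or was lower at an unadjusted p under 0.05 in limma, with Tfam at 1.07 (SE 0.26) and Myc at 1.08 (SE 0.19). The background in this comparison was 28.9% of all genes passing.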
